A study of Mus musculus with 9 samples.

Results

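Granzyme B and 8 genes used as markers of T cells and natural killer cells were followed in mouse ear skin: Gzmb, Gzma, Cd3e, Cd3g, Cd3d, Thy1, Cd8a, Il2rb and Klrd1. They were chosen by symbol, and the array annotation gave them 14 probe sets of the 45101 on the array. A probe set is the group of short probes that reports 1 transcript, and its value here is a MAS5 signal, a linear intensity. The 9 genes were among 18193 with a probe set, and 8 of them were among the 14122 genes bright enough to be tested; Gzma was not.

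Total RNA of ear skin was measured in C57BL/6 mice, 6 h after the ear surface was treated. Each of 3 treatments had 3 arrays: DNFB (dinitrofluorobenzene), labelled as an allergen, BAC, labelled as an irritant, and acetone with olive oil, the vehicle. The compounds were put on right ears and the vehicle on left ears, so ear side cannot be told apart from treatment in the comparisons with vehicle; DNFB against BAC compares right ears with right ears. The sources used here give no doses, no ages and no earlier exposure of the mice. Replicates are numbered, but nothing in the labels calls them separate animals, so p-values measure only the spread between these arrays, and that spread may be technical.

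T cells recognise antigen through a receptor that signals through the CD3 chains. Cytotoxic T cells and natural killer cells carry granules of perforin and granzymes, proteases that enter a target cell and start its death. Mouse skin holds resident T cells, many of them gamma-delta T cells of the epidermis, and T cells that respond to a contact allergen are the effector cells of allergic contact dermatitis. In bulk skin, a change in the number of cells of a type and a change in RNA per cell cannot be told apart.

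The promoter windows of the granzymes are shown because Gzmb was the member whose signal changed after both compounds and Gzma is the granzyme beside it among the members. Each is 300 bases of RefSeq sequence in build GRCm38.p6, from 250 bases before the transcript start to 50 after it, printed 5′ to 3′ on the gene's strand. Gzmb lies at chr14:56262285-56262584 and Gzma at chr13:113100932-113101231, both on the minus strand. Capitals mark matches, on either strand, to TGANTCA (AP-1) and TGTGGT (RUNX).
Gzmb: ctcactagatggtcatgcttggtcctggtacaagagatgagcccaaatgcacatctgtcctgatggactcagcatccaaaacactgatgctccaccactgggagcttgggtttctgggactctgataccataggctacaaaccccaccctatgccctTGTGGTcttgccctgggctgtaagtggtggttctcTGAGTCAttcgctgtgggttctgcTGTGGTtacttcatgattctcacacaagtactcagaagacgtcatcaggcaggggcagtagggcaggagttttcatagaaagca
Gzma: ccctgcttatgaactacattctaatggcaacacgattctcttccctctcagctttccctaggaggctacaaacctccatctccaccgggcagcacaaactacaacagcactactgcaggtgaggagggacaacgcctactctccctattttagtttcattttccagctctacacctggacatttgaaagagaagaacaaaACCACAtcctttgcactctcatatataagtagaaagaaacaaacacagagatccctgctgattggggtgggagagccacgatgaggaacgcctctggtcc
The Gzmb window held 1 AP-1 match, which began 58 bases before the start, and 2 RUNX matches, which began 93 and 34 bases before it. The Gzma window held 1 RUNX match, 50 bases before the start, and no AP-1 match. Of 32851 windows of this length, 7.81% held TGANTCA and 16.8% held TGTGGT. The CRE letters TGACGTCA, present in 1.79% of windows, were in none of the 6 members with a window. The STAT letters TTCNNNGAA, present in 8.3%, were in 2 of the 6, Gzmb and Cd3d. None of these matches overlapped another in the Gzmb or Gzma window. In the RefSeq gene order Gzmb stood beside Gzmn, Gzmf and Gzmc on chromosome 14, Gzma beside Gzmk on chromosome 13, and Cd3g, Cd3d and Cd3e followed one another on chromosome 9.

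Every array had been scaled to a trimmed mean of 250.001. A signal was called near background when it lay below the 40th percentile of the probe sets of its array, which was between 46.2 and 60.7. Arrays of one treatment correlated with r from 0.935 to 0.966 over all probe sets and arrays of different treatments with r from 0.925 to 0.948. RNA integrity can be read from control probe sets at both ends of a transcript. For Gapdh, the 3′ signal divided by the 5′ signal was 1.36 in DNFB replicate 2 and 0.841 to 0.943 in the other 8 arrays. The same quotient for actin was 1.05 to 1.10 in the vehicle arrays, 1.09 to 1.28 in the DNFB arrays and 1.18 to 1.22 in the BAC arrays. The keratins Krt5 and Krt14, which define basal keratinocytes, had signals of 8507 ± 400 and 9807 ± 510 (SD, n = 3) in vehicle skin.

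Gzmb encodes granzyme B, a granule protease that cleaves its substrates after aspartate. It rose after both compounds, and more after BAC than after DNFB. Its probe set (1419060_at, Entrez gene 14939) had signals of 25.2, 46.7 and 21.5 in vehicle replicates 1 to 3. The DNFB replicates had 91.5, 123 and 106, and the BAC replicates 327, 427 and 304. All vehicle arrays therefore lay below all DNFB arrays, and all DNFB arrays below all BAC arrays. Vehicle replicates 1 and 3 were near background and vehicle replicate 2 was just above it, whereas all 6 arrays of treated skin were above it. The group means were 31.1 ± 13.6 for vehicle, 107 ± 15.9 for DNFB and 353 ± 65.6 for BAC (SD, n = 3 each).

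**Figure D1:**
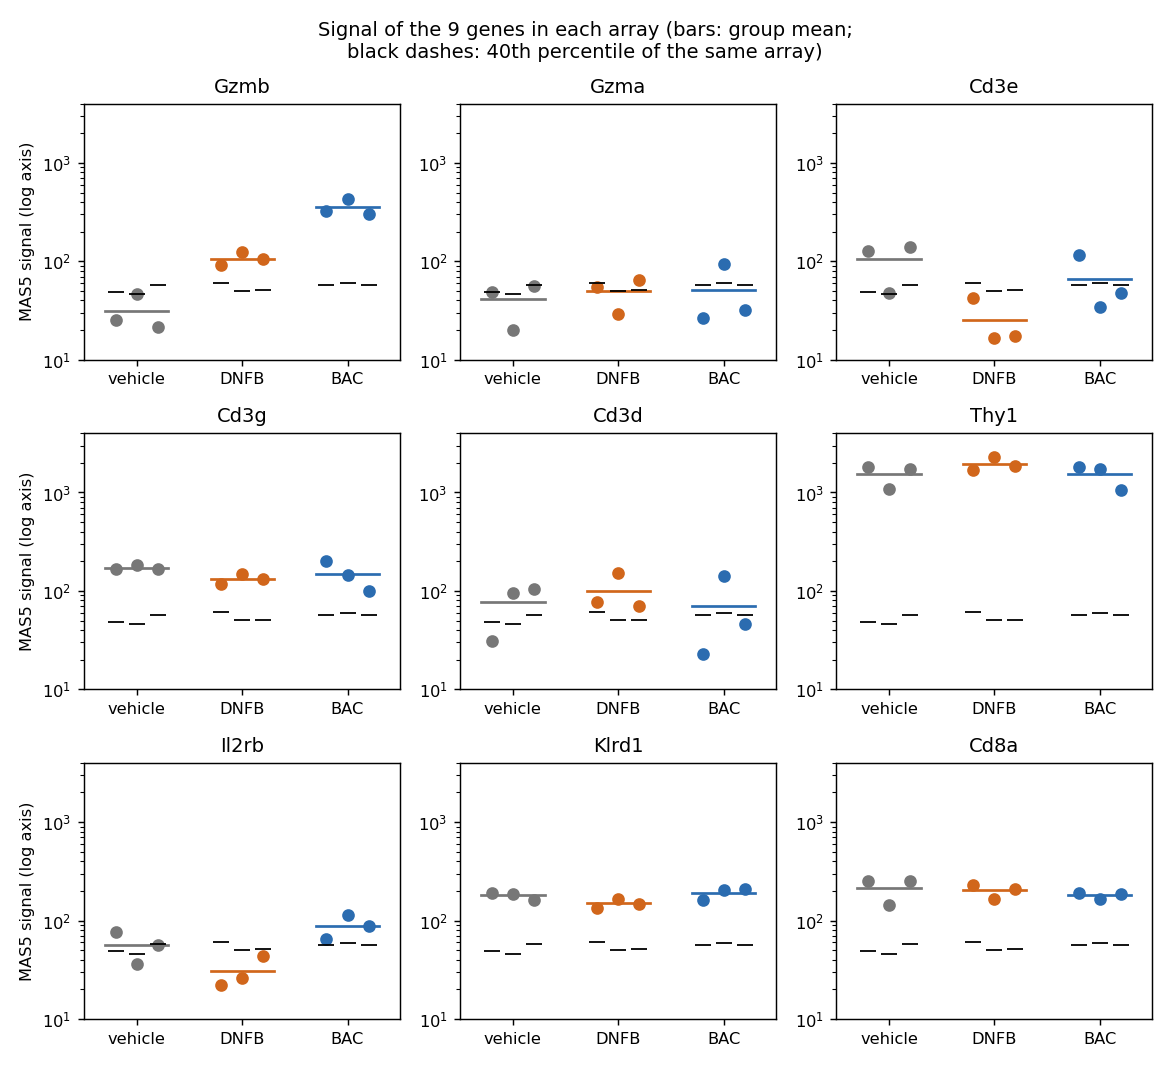
MAS5 signal of each of the 9 genes on a log axis, 1 point per array by treatment, with group means as bars and the 40th percentile of each array as black dashes. Gzmb is the member whose DNFB arrays (91.5 to 123) and BAC arrays (304 to 427) both lie above all vehicle arrays (21.5 to 46.7), while Thy1, at 1073 to 2273, lies far above background in every array.

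Changes were tested with limma on log2(signal + 16), with Benjamini-Hochberg adjustment over the 14122 genes and a threshold of 0.05. Adding 16 makes a log2 change understate the fold of a dim gene. Gzmb was higher in DNFB than in vehicle skin by 1.41 ± 0.25 (log2, SE; 95% interval 0.87 to 1.95; adjusted p = 0.00146). It was higher in BAC than in vehicle skin by 2.99 ± 0.25 (2.45 to 3.53; limma adjusted p = 1.01e-06). DNFB skin was below BAC skin by a log2 difference of -1.58 ± 0.25 (-2.12 to -1.04; limma adjusted p = 0.00135). All 3 of these calls held under each of 19 alternatives. The size of the rise after DNFB depended on the pseudocount, with 0.85 when 64 was added.

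As a ratio of geometric mean signals, Gzmb was 3.61-fold higher in DNFB and 11.9-fold higher in BAC than in vehicle skin. With vehicle signals set no lower than the 40th percentile of their array, a setting chosen after seeing the data, these ratios were 2.09 and 6.88. The ratios against vehicle thus depend on how the dim vehicle signals are treated. DNFB over BAC gave 0.304, from signals that all lay above background. The order of vehicle below DNFB below BAC in every array was found in 1.49% of tested genes, and all 3 limma calls in that order in 0.616%.

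Gzma encodes granzyme A, a granule protease that cleaves after basic residues. Its single probe set (1417898_a_at, Entrez gene 14938) was near background in 7 of 9 arrays. The signals were 48.5, 20.2 and 55.5 in vehicle, 54.4, 28.8 and 64.9 in DNFB and 26.8, 93.7 and 32.3 in BAC arrays. The groups overlapped throughout, and the highest value, BAC replicate 2, stood beside low values in the other BAC arrays. A limma fit was also run with the filter on low signals lifted and each probe set tested on its own. It gave Gzma a log2 change of 0.21 ± 0.45 for DNFB (limma adjusted p = 0.864) and 0.15 ± 0.45 for BAC (limma adjusted p = 0.898). No change of Gzma was detectable at this signal.

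The other granule genes were taken from a list of 22 genes with a probe set, of which 13 were tested. Gzmc, Gzmd, Gzme, Gzmf, Gzmg, Gzmk and Gzmn did not pass the filter, so Gzmb and Gzmm were the tested granzymes. Gzmm, a granzyme of natural killer cells, did not pass the test, with log2 changes of 0.20 for DNFB and 0.092 for BAC. Prf1, the pore-forming perforin that lets granzymes enter cells, had signals of 61.1, 75.0 and 113 in vehicle, 93.5, 88.4 and 65.6 in DNFB and 61.4, 128 and 97.9 in BAC arrays. These overlapped, and its log2 changes were 0.016 (95% interval -0.64 to 0.67) after DNFB and 0.16 after BAC.

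Of the 13 tested granule genes, 1 was higher and 2 were lower after DNFB, and 3 were higher and 1 was lower after BAC. Over all tested genes, 6.76% were higher and 7.08% lower after DNFB, and 6.59% were higher and 7.64% lower after BAC. The median log2 change of the granule list was 0.12 after DNFB and 0.25 after BAC, and that of all tested genes 0.0022 and -0.031. Srgn, the proteoglycan serglycin that packs proteases into granules of many blood cells, was the granule gene that rose after both compounds. Its signals were 1312, 1732 and 1118 in vehicle, 3448, 3286 and 4174 in DNFB and 5612, 6271 and 6892 in BAC arrays, the same order without overlap as Gzmb. The log2 changes of Srgn were 1.40 (limma adjusted p = 1.11e-05) and 2.18 (limma adjusted p = 1.03e-07). Stx11, a syntaxin used in granule release, rose by 1.08 after BAC (limma adjusted p = 0.00074). Rab27a, a GTPase that docks granules and also moves melanosomes, fell by 1.29 after DNFB and by 0.79 after BAC on the log2 scale (limma adjusted p = 0.000462 and 0.0165). Nkg7, a granule membrane protein of cytotoxic cells, fell by 0.99 after DNFB (limma adjusted p = 0.0348). Its mean signals were 126, 57.4 and 61.6 in vehicle, DNFB and BAC skin. DNFB replicates 1 and 3 and BAC replicate 2 were near background, so the size of its change is not well fixed. After BAC its log2 change was -0.87 and did not pass (limma adjusted p = 0.0612). DNFB against BAC gave -0.12 (limma adjusted p = 0.855), so Nkg7 after DNFB is not shown to differ from Nkg7 after BAC.

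The CD3 chains form the signalling part of the T cell receptor, and none of the 3 was called higher after either compound. Cd3e, the epsilon chain (1422105_at, Entrez gene 12501), had signals of 127, 47.4 and 140 in vehicle, 42.4, 16.8 and 17.2 in DNFB and 117, 34.2 and 47.3 in BAC arrays. All vehicle arrays were above all DNFB arrays, though vehicle replicate 2 and DNFB replicate 1 lay close together at 47.4 and 42.4. All 3 DNFB arrays were near background, as were BAC replicates 2 and 3, so Cd3e passed the filter through the vehicle arrays and BAC replicate 1. Cd3e was lower in DNFB than in vehicle skin by a log2 difference of -1.49 ± 0.47 (95% interval -2.48 to -0.50; limma adjusted p = 0.0451).

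This call for Cd3e stood close to the threshold. Without the intensity trend of limma its adjusted p was 0.0802, without the filter on low signals 0.0591, and with each probe set tested on its own 0.0512. It was also lost when 1 array was left out: the limma adjusted p was 0.185 without vehicle replicate 1, 0.197 without vehicle replicate 3, 0.125 without DNFB replicate 2, 0.117 without DNFB replicate 3 and 0.0514 without BAC replicate 3. DNFB replicate 2 was the array with the Gapdh ratio of 1.36, and the part of RNA integrity in the Cd3e value was not tested beyond that omission. BAC against vehicle gave -0.58 ± 0.47 (-1.57 to 0.41; limma adjusted p = 0.456) for Cd3e, and DNFB against BAC gave -0.91 (limma adjusted p = 0.28). Cd3e after DNFB is thus not shown to differ from Cd3e after BAC.

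Cd3g, the gamma chain (1419178_at, Entrez gene 12502), was above background in all 9 arrays. It had signals of 168, 181 and 169 in vehicle, 116, 148 and 134 in DNFB and 199, 144 and 100.026 in BAC arrays. Its DNFB arrays lay below its vehicle arrays without overlap, and its BAC arrays spanned both. The log2 change after DNFB was -0.35 ± 0.23 and did not pass (limma adjusted p = 0.362). Cd3d, the delta chain (1422828_at, Entrez gene 12500), had signals of 31.1, 96.3 and 105 in vehicle, 76.3, 153 and 70.2 in DNFB and 22.7, 141 and 46.5 in BAC arrays. Replicates of 1 treatment spread more widely than the group means of 77.6, 99.8 and 70.0, and Cd3d was near background in 3 of 9 arrays. Its log2 changes were 0.36 after DNFB (95% interval -0.69 to 1.40) and -0.25 after BAC (-1.30 to 0.79), with limma adjusted p of 0.71 and 0.784. The first became -0.081 without vehicle replicate 1 and the second 0.20 without BAC replicate 1. The T cell receptor zeta chain Cd247, the remaining signalling chain, had mean signals of 79.6, 49.9 and 74.8 in vehicle, DNFB and BAC skin and a log2 change of -0.61 after DNFB that did not pass (limma adjusted p = 0.334).

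Thy1 and Cd8a are surface markers. Thy1 is a glycoprotein anchored in the membrane of mouse T cells, and also of fibroblasts and neurons. It was bright in every array (1423135_at, Entrez gene 21838), with signals of 1796, 1075 and 1750 in vehicle, 1703, 2273 and 1868 in DNFB and 1818, 1740 and 1073 in BAC arrays. The groups overlapped, with vehicle replicate 2 and BAC replicate 3 lowest. Its log2 change was 0.36 ± 0.21 after DNFB (limma adjusted p = 0.294) and 0.0019 after BAC (95% interval -0.44 to 0.44; limma adjusted p = 0.997). Of 12 tested genes of fibroblasts and nerve, which share Thy1, 3 were higher after DNFB and 2 after BAC, beside 6.76% and 6.59% of all tested genes, with medians of 0.31 and 0.19. Mfap5, a microfibril protein of connective tissue, rose by 0.77 and 0.37, and Pi16, a fibroblast marker, by 0.55 and 0.40. Lum, the matrix proteoglycan lumican, rose by 0.39 after DNFB.

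Cd8a, the alpha chain of the co-receptor for class I antigen (Entrez gene 12525), had 5 probe sets. The one with the highest mean represented the gene (1440164_x_at), with signals of 249, 144 and 250 in vehicle, 231, 164 and 211 in DNFB and 191, 165 and 185 in BAC arrays. They overlapped, and the log2 changes were -0.054 after DNFB and -0.19 after BAC (limma adjusted p = 0.91 and 0.603), the first becoming 0.031 with quantile normalization. Probe set 1451673_at was above background in 7 of 9 arrays, with 56.3, 46.7 and 51.7 in vehicle, 82.8, 68.7 and 45.9 in DNFB and 70.7, 79.1 and 65.1 in BAC arrays. Here the BAC arrays lay above the vehicle arrays, by a log2 change of 0.37 that did not pass when each probe set was tested (limma adjusted p = 0.501). The estimates of the pair after BAC thus had opposite signs, and neither passed. Probe sets 1425335_at and 1440811_x_at were near background in all 9 arrays, and 1444078_at in 8 of 9. The annotation gives 1451673_at and 1425335_at the same source sequence and 1440164_x_at a different source. Vehicle means were 51.6 for 1451673_at, 10.5 for 1425335_at and 214 for 1440164_x_at. The level of Cd8a thus depended on the probe set, and which of them reports it best was not tested. Cd4, the co-receptor for class II antigen, was near background in all 9 arrays, with group means of 15.6, 19.8 and 17.6.

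**Figure D2:**
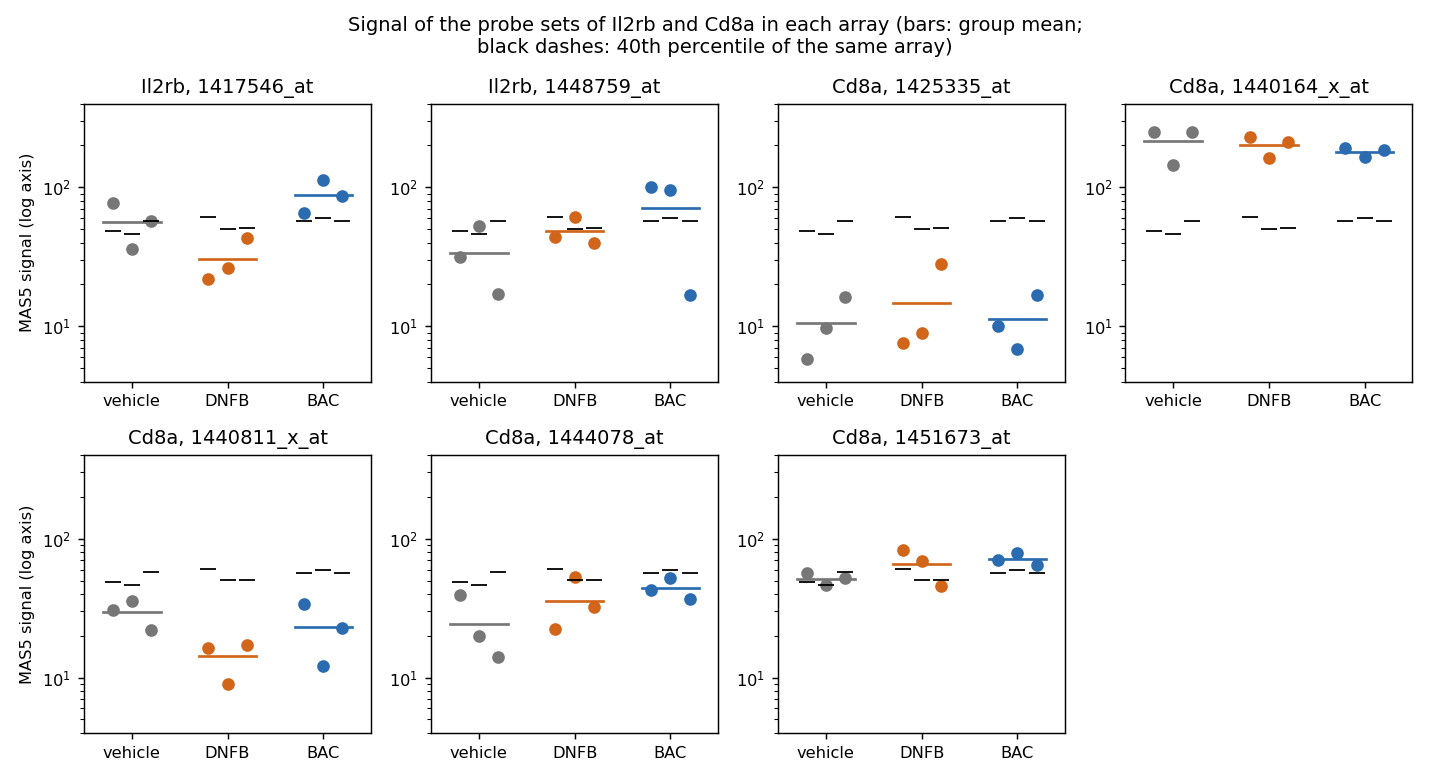
MAS5 signal of the probe sets of Il2rb and Cd8a on a log axis, 1 point per array by treatment, with group means as bars and the 40th percentile of each array as black dashes. Several probe sets lie at or below the dashes, and the 2 probe sets of Il2rb order the DNFB and vehicle arrays differently.

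Il2rb encodes the beta chain shared by the receptors for IL-2 and IL-15, found on natural killer cells and on activated and memory T cells. Probe set 1417546_at (Entrez gene 16185), which represented it, had signals of 76.5, 36.2 and 56.9 in vehicle, 22.0, 26.2 and 43.1 in DNFB and 65.4, 113 and 87.3 in BAC arrays. All DNFB arrays were near background and all BAC arrays above it, without overlap between them, while the vehicle arrays overlapped both. Vehicle replicates 2 and 3 were near background too. Il2rb thus passed the filter through the BAC arrays and vehicle replicate 1, and the size of its changes is not well fixed. DNFB against BAC gave a log2 difference of -1.17 ± 0.38 (95% interval -1.97 to -0.37), which did not pass (limma adjusted p = 0.0752). The changes from vehicle were -0.63 after DNFB and 0.54 after BAC (limma adjusted p = 0.316 and 0.379).

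The other Il2rb probe set, 1448759_at, did not repeat this. Its signals were 31.5, 52.3 and 17.0 in vehicle, 44.2, 61.0 and 39.9 in DNFB and 101, 95.5 and 16.7 in BAC arrays. BAC replicate 3 was the lowest of all 9 and the other BAC arrays the highest, so the groups overlapped. With each probe set tested on its own, its difference between DNFB and BAC was -0.24 (limma adjusted p = 0.844), and its change after DNFB was 0.43 (limma adjusted p = 0.67), opposite in sign to that of 1417546_at.

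Klrd1 encodes CD94, a lectin-like receptor that pairs with NKG2 proteins on natural killer cells and some T cells. It was above background in all 9 arrays (1460245_at, Entrez gene 16643), with signals of 193, 185 and 162 in vehicle, 134, 167 and 146 in DNFB and 161, 203 and 207 in BAC arrays. The groups overlapped narrowly, with the DNFB arrays toward the low end. Log2 changes were -0.25 after DNFB and 0.073 after BAC (limma adjusted p = 0.427 and 0.836), the latter turning to -0.013 when arrays were centred on their medians. Ncr1, the activating receptor that defines natural killer cells, was near background in all 9 arrays. Of 7 tested genes of natural killer cells, 1 was higher and 1 lower after DNFB, and 2 were higher after BAC, with medians of 0.19 and 0.54. The shares of all tested genes were 6.76% higher and 7.08% lower after DNFB, and 6.59% higher and 7.64% lower after BAC. Cd244a, a receptor of the SLAM family on natural killer cells, some T cells and some myeloid cells, had signals of 33.5, 79.7 and 31.2 in vehicle, 48.9, 9.86 and 19.4 in DNFB and 126, 174 and 157 in BAC arrays. Its BAC arrays lay above the other 6, of which 5 were near background. It rose by 1.46 after BAC (limma adjusted p = 0.0268) and was lower in DNFB than in BAC skin by a log2 difference of -2.10 (limma adjusted p = 0.0059). Cd244a passed the filter through the BAC arrays and vehicle replicate 2, so the size of these changes is not well fixed. Klrb1b, a lectin-like receptor of natural killer cells, fell by 1.17 after DNFB on the log2 scale (limma adjusted p = 0.00388), and Tyrobp, an adaptor shared with myeloid cells, rose by 0.58 and 0.94.

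Counted over the members, 1 of the 8 tested genes was higher after DNFB (Gzmb), against a background of 6.76% of all tested genes. Another 1 was lower (Cd3e), against 7.08%. After BAC, 1 was higher (Gzmb; background 6.59%) and 0 were lower (background 7.64%); by limma 1 member had an unadjusted p under 0.05. DNFB against BAC gave 1 member lower (Gzmb; background 3.66%) and 0 higher (background 3.14%), with 2 at an unadjusted p under 0.05. Arrays did not overlap for 3 members between DNFB and vehicle (Gzmb, Cd3e and Cd3g; background 30.9%), for 1 between BAC and vehicle (background 34.1%) and for 2 between DNFB and BAC (Gzmb and Il2rb; background 25.2%). With 8 genes, these counts do not set the members apart from the background. The share of all tested genes at an unadjusted p under 0.05 was not counted, so such counts have no background here or below. The median log2 change of the 8 was -0.15 after DNFB and -0.095 after BAC, beside 0.0022 and -0.031 over all tested genes. The moderated F test among the 3 treatments called Gzmb (limma adjusted p = 2.85e-06) and no other member, against a background of 19.4%; Cd3e had an adjusted p of 0.0799 and Il2rb of 0.0893. Both comparisons with the vehicle used the same 3 vehicle arrays.

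**Figure D3:**
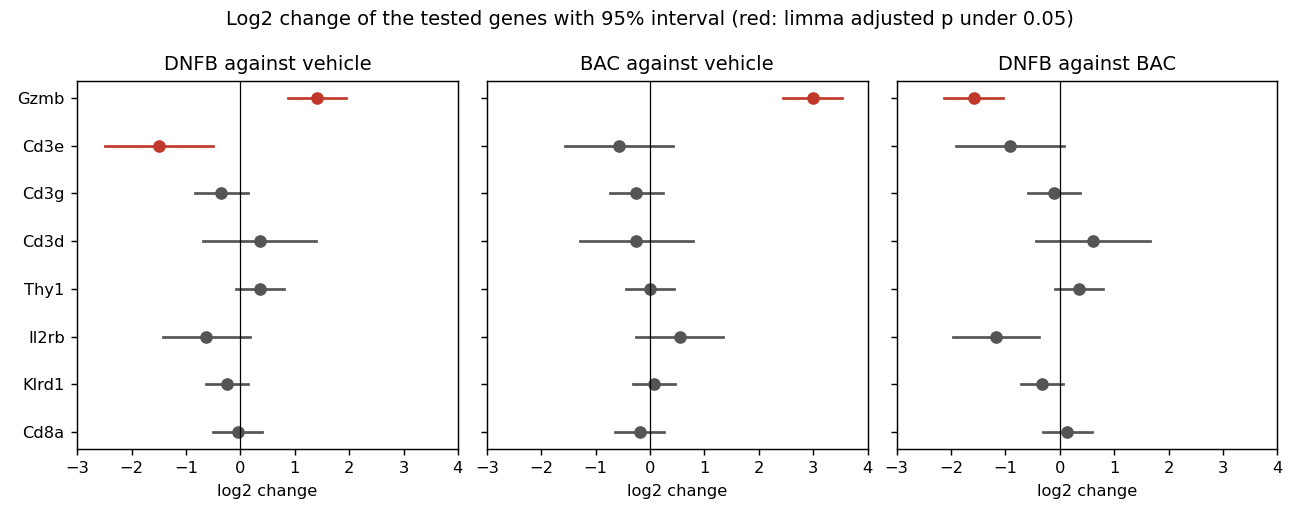
Log2 change of the 8 tested genes in each comparison, with the 95% interval as a bar and genes at a limma adjusted p under 0.05 in red. The intervals of Gzmb (0.87 to 1.95 after DNFB, 2.45 to 3.53 after BAC) stay clear of 0, and that of Cd3e after DNFB reaches from -2.48 to -0.50.

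Other genes of T cells were read from a list of the receptor complex and surface. Of its 9 tested genes, 2 were higher after DNFB, 3 were higher after BAC and 0 were lower in either, beside 6.76% and 6.59% of all tested genes higher; by limma 2 and 3 had an unadjusted p under 0.05. The median log2 change was 0.40 after DNFB and 0.35 after BAC. Cd6, a co-receptor of T cells that binds ALCAM, rose by 1.60 after DNFB and 1.54 after BAC (limma adjusted p = 0.00622 and 0.00794), from a mean signal of 21.9 in vehicle to 96.3 and 95.3. All 3 of its vehicle arrays were near background, at 34.0, 14.7 and 17.0, and it passed the filter through the 6 arrays of treated skin, so the size of its change is not well fixed. Icos, an inducible co-stimulatory receptor, rose by 1.18 after BAC (limma adjusted p = 0.0109), from a mean signal of 81.0 to 206. Cd52, a small surface glycoprotein of many leukocytes, rose by 0.48 and 0.98. The summed signal of the 9 genes was 1143 to 1277 in vehicle, 1565 to 1764 in DNFB and 2013 to 2175 in BAC arrays, of which Cd52 alone made up 617 to 705, 884 to 959.9 and 1238 to 1443. Without Cd52, left out after its values were seen, the sum was 526 to 573, 605 to 879 and 731 to 906. Cd5, Cd28, Cd7, Ctla4 and Cd96 passed in neither comparison with vehicle.

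Of 15 tested genes that carry the signal of the T cell receptor, 1 was higher and 2 lower after DNFB. After BAC, 3 were higher and 3 lower. The median log2 changes were -0.035 after DNFB and -0.066 after BAC. Beside this list and the next, 6.76% of all tested genes were higher and 7.08% lower after DNFB. The shares after BAC were 6.59% and 7.64%. Ptprc, the leukocyte phosphatase CD45, rose by 0.62 and 1.39. Fyb and Lcp2, adaptors used in T cells and in myeloid cells, rose after BAC by 1.43 and 1.38. The 3 genes lower after BAC had smaller changes than Ptprc, Fyb and Lcp2. Nfatc2, a transcription factor activated by calcium, fell by 1.36 after DNFB (limma adjusted p = 5.92e-05), from a mean signal of 496 to 184. Its mean in BAC skin was 313, also below that in vehicle. Rasgrp1, an exchange factor for Ras in lymphocytes, fell by 0.76 after DNFB (limma adjusted p = 0.0173), with means of 248, 139 and 185 in vehicle, DNFB and BAC skin. Of 11 tested genes of gamma-delta and epidermal T cells, 2 were lower after DNFB, Zbtb16 by -1.19 and Maf by -0.63, and 0 were higher; the median was -0.16. After BAC 0 of the 11 passed, with 1 at an unadjusted p under 0.05 by limma. Zbtb16 and Maf are transcription factors that other skin cells also use.

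The IL-2 and IL-15 receptor pathway was read from a list of ligands, receptor chains and signalling genes. Of its 15 tested genes, 2 were higher after DNFB and 5 after BAC, and 0 were lower in either. Beside this list and the next, 6.76% of all tested genes were higher and 7.08% lower after DNFB. The shares after BAC were 6.59% and 7.64%. By limma, 4 and 7 of the 15 had an unadjusted p under 0.05, counts for which no background share was taken. The medians were 0.31 and 0.43, beside 0.0022 and -0.031 over all tested genes. Myc, a growth regulator, rose by 1.32 and 1.96. Cish, a cytokine-induced inhibitor of STAT5, rose by 1.60 after BAC (limma adjusted p = 1.42e-05), and Il7r, the IL-7 receptor chain, by 1.24 (limma adjusted p = 0.00013). Jak1, a kinase bound to Il2rb, rose by 0.35 after DNFB, and Stat5a, a transcription factor of this pathway, was lower in DNFB than in BAC skin by a log2 difference of -0.70. Il2ra, the high-affinity IL-2 receptor chain, had mean signals of 24.3, 55.9 and 59.2 in vehicle, DNFB and BAC skin and passed in neither comparison. Of 16 tested genes of lymphocyte activation, 4 were higher and 3 lower after DNFB, and 7 were higher and 1 lower after BAC, with medians of 0.14 and 0.58. Ccl3, a chemokine made by T cells and myeloid cells alike, rose by 1.33 and 3.24, and Bhlhe40, a transcription factor of activated T cells and other cells, by 1.41 and 2.32. Ccl4, a chemokine like Ccl3, rose by 1.98 after BAC, and Tnfrsf9, the co-stimulatory receptor 4-1BB, was lower in DNFB than in BAC skin by a log2 difference of -1.89. Egr3, induced by antigen receptors and growth factors, fell by 0.88 after DNFB on the log2 scale (limma adjusted p = 9.87e-05).

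Markers of neutrophils, mast cells and B cells were read from lists, and many neutrophil markers changed in the same order as Gzmb. Of 13 tested neutrophil markers, 10 were higher after DNFB and 12 after BAC, and 8 followed the order of vehicle below DNFB below BAC in every array. The shares over all tested genes were 6.76% higher after DNFB, 6.59% higher after BAC and 1.49% in that order, and the medians of the list were 1.29 and 2.29. S100a8 and S100a9, the subunits of calprotectin, which neutrophils carry and keratinocytes can also make, rose by 2.88 and 3.03 after DNFB and by 3.58 and 3.74 after BAC. Clec4d, a lectin receptor of myeloid cells, rose by 2.22 after DNFB, and Csf3r, the G-CSF receptor, by 3.11 after BAC. In DNFB against BAC the largest differences past the threshold were those of Clec4e (-1.45), Cxcr2 (-1.29) and Lcn2 (-1.12), a lectin receptor, a chemokine receptor and the lipocalin of neutrophil granules. Their summed signal was 4269 to 9417 in vehicle, 15409 to 25964 in DNFB and 26009 to 35820 in BAC arrays, and none of the 13 was at 0 in any array. S100a8 and S100a9 made up 816 to 5198, 9342 to 18435 and 16984 to 25252 of these sums. Without both, left out after their values were seen, the sum of the other 11 was 3454 to 4219, 6067 to 7529 and 9025 to 10568, still without overlap between treatments. Of 12 tested mast cell markers, 6 were higher after DNFB and 2 after BAC, with summed signals of 5282 to 5762, 7088 to 9049 and 7035 to 7702 and medians of 0.52 and 0.30. Hdc, the histamine-forming enzyme, rose by 0.89 and 2.69. The protease Mcpt4, which defines connective tissue mast cells, rose by 0.65 after DNFB, and its change of 0.40 after BAC did not pass (limma adjusted p = 0.0505). Cma1, a mast cell chymase, and Mrgprb1, a mast cell receptor, rose by 0.73 and 0.75 after DNFB, and the tryptase Tpsab1 by 0.74 after BAC. The part of neutrophils, mast cells and RNA integrity in the Gzmb values was not tested. Of 7 tested B cell markers, 0 passed in any comparison; Cd79a, a chain of the B cell receptor, had mean signals of 40.6, 83.2 and 51.5, and 1 of the 7 had an unadjusted p under 0.05 by limma after DNFB and 0 after BAC. The smallest p-values in this list were those of Blnk after DNFB (log2 change -0.41) and Cd79b after BAC (0.90), an adaptor and a chain of the B cell receptor.

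**Figure D4:**
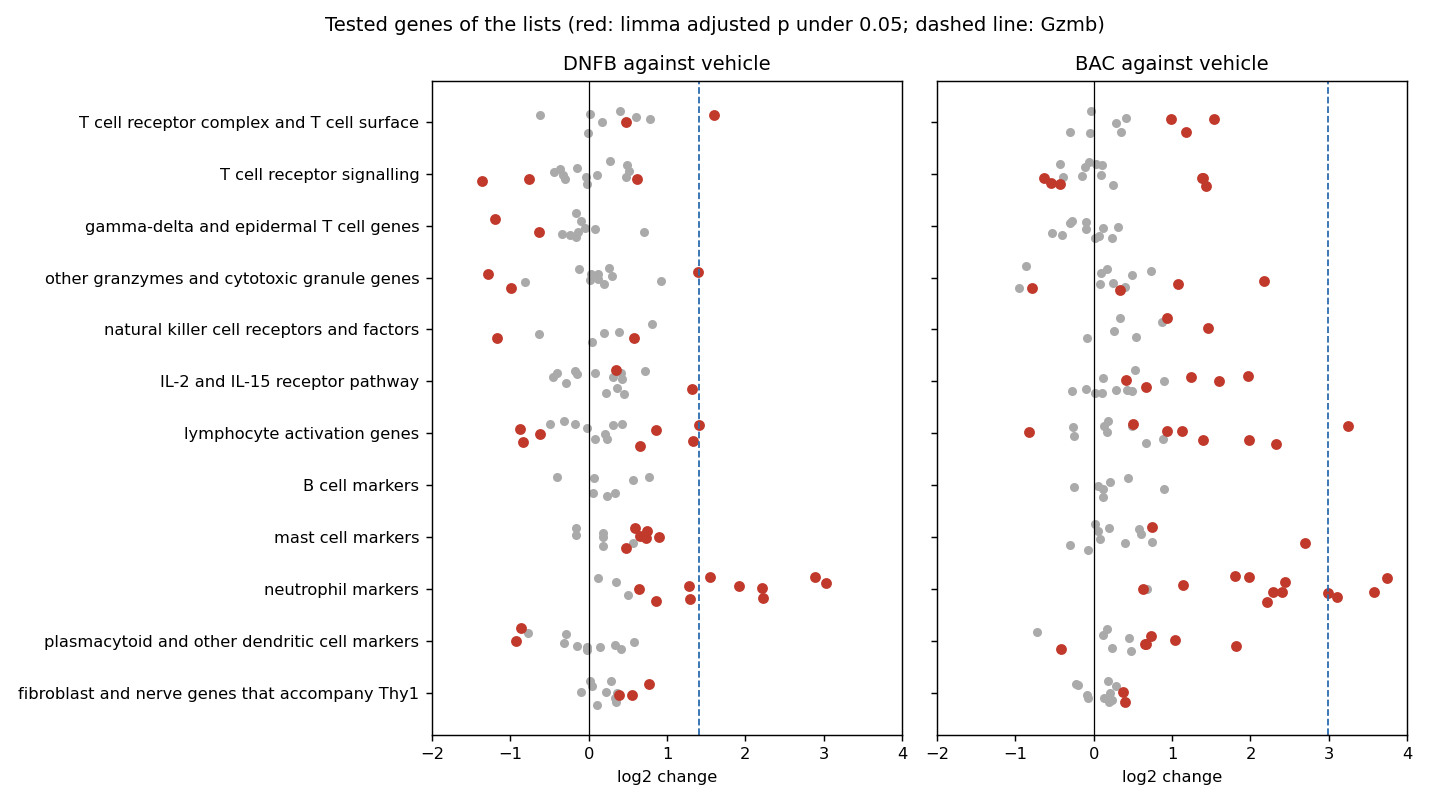
Log2 change of each tested gene of the gene lists in DNFB against vehicle and BAC against vehicle. Genes at a limma adjusted p under 0.05 are red, and a dashed line marks the change of Gzmb. The lists of keratinocyte and skeletal muscle markers are not drawn. In BAC against vehicle the dashed line stands at 2.99, and the neutrophil list has the most genes called, 12 of 13.

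The tested genes most like Gzmb over the 9 arrays, by Pearson's r of log2 values, were Rgs16 (0.990), Clint1 (0.984), Itgb2 (0.983), Csf2rb (0.982) and Arf6 (0.981). Rgs16 is a regulator of G-protein signalling with mean signals of 36.3, 166 and 692 in vehicle, DNFB and BAC skin. Itgb2 is the beta chain of the leukocyte integrins, and Csf2rb that of the receptors for GM-CSF, IL-3 and IL-5. Those most like Cd3e were Klf4 (0.969), Efcab1 (0.957), Tff1 (0.956), Dcaf12 (0.950) and Mtmr3 (0.943). Klf4 is a transcription factor of differentiating keratinocytes, with mean signals of 8835, 7014 and 8018. The arrays fall into 3 treatments, so the values for Gzmb mainly compare group means. Those for Cd3e also follow its spread within treatments, from 47.4 to 140 in vehicle and 34.2 to 117 in BAC arrays. Part of that spread lay near background, and the values for both genes are a description only.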

How the data were processed

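Per the labels' protocols, total RNA was labelled with a 3′ kit for Affymetrix arrays. The deposited intensities hold 1 MAS5 signal per probe set and array and were made by the authors with MAS5 and the Affymetrix Expression Console, per the submitters' processing notes. Versions and settings: not given in the sources used here. Detection calls were not used. After trimming 2% at either end, every array averaged 250.001. Groups came from sample titles.

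Of 45101 probe sets, 64 were controls and were left out, 34945 had 1 gene symbol, 932 several and 9160 none. A gene was represented by its brightest probe set by mean log2 value (18193 genes), and was tested when its signal passed the 40th percentile of 3 or more of the 9 arrays (14122 genes). The deposited intensities were transformed to log2(signal + 16) and fitted in 1 model over all 9 arrays with limma 3.58.1 in R 4.3.3 (with an intensity trend; residual degrees of freedom 6, prior 9.09), two-sided, with Benjamini-Hochberg adjustment and a threshold of 0.05. The script was tested on simulated data. An exact test of 3 arrays against 3 cannot go below p = 0.1, and the number of arrays limits the precision.

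The members and lists were chosen with earlier results of these data known. All members are named. The rule for named genes took from each list and comparison up to 3 genes with the largest change past the threshold, or the gene of smallest p where none passed. It added defining markers and the 5 genes most like Gzmb and Cd3e; others were chosen after their values were seen. Alternatives changed the pseudocount, filter, scaling, intensity trend, probe set rule, replicate block and arrays left out.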

Additional observations from a re-analysis of the deposited data

How the results depend on the processing

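Gzmb passed in each comparison under all 19 alternatives, 9 of which left out 1 array. Its log2 change with 1 array left out was 1.26 to 1.64 for DNFB, 2.84 to 3.21 for BAC and -1.67 to -1.44 for DNFB against BAC (limma adjusted p 0.000614 to 0.00936, 8.23e-07 to 2.72e-05 and 0.000523 to 0.0166). Under the others it was 0.85 to 1.81, 2.13 to 3.52 and -1.71 to -1.28, the extremes in the comparisons with vehicle coming from pseudocounts of 64 and 1. The count of members lower after DNFB, 1 (Cd3e), became 0 with each probe set tested on its own, with the filter at the 60th percentile (5 members tested, Cd3e not among them), with no filter and with no intensity trend, and ranged from 0 to 1 with 1 array left out. The F test called 2 members with no intensity trend (Gzmb and Il2rb) and 1 to 2 with 1 array left out (Gzmb and Cd3e without vehicle replicate 2).

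The labels do not say whether same-numbered samples share an animal, so the numbers were not taken to pair them; their deviations correlated with r from -0.122 to 0.153. With the replicate block the F test called 2 members (Gzmb and Cd3e), and Gzmb changed by 1.41, 2.99 and -1.58 (limma adjusted p 0.00114, 1.65e-06 and 0.00102).

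Reversals concerned small changes that did not pass: Cd8a after DNFB was 0.031 with quantile normalization, and with median centring Klrd1 after BAC was -0.013 and Thy1 after BAC -0.084. With 1 array left out the ranges crossed 0 for Cd3d (-0.081 to 0.60 after DNFB, -0.81 to 0.20 after BAC), Cd3g (-0.32 to 0.12 for DNFB against BAC), Cd8a (-0.30 to 0.078 after DNFB) and Thy1 (-0.24 to 0.24 after BAC). The cause was not tested. The number of all genes called after DNFB, 1955, was 1202 with no intensity trend, 1276 without vehicle replicate 1 and 1249 without vehicle replicate 3; after BAC, 2009 became 1225 without vehicle replicate 1; for DNFB against BAC, 961 became 402 with no intensity trend, 513 without BAC replicate 2, 608 without DNFB replicate 2 and 571 without DNFB replicate 3. Signals near background limit Gzma, Cd3e, Cd3d, Il2rb and most probe sets of Cd8a.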

Other observations

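Other cell types in the same arrays were described by their marker lists. Of 12 tested dendritic cell markers, 2 were lower after DNFB, and 5 were higher and 1 lower after BAC, beside 6.76% higher and 7.08% lower of all tested genes after DNFB and 6.59% and 7.64% after BAC. The medians were -0.086 and 0.46. Cd83, a surface marker of mature dendritic cells, fell by 0.86 on the log2 scale after DNFB and rose by 1.82 after BAC, and Cd207, the langerin of Langerhans cells, fell by 0.93 after DNFB and rose by 1.04 after BAC. Cd209a, a lectin of dermal dendritic cells, rose by 0.73 after BAC. Of 10 tested keratinocyte markers, 5 were lower after DNFB and 4 after BAC, and 0 were higher in either; by limma 8 and 5 had an unadjusted p under 0.05. The medians were -0.53 and -0.17. Trp63, a transcription factor of basal cells, fell by 1.10 after DNFB. Krt1, a keratin of differentiating cells, fell by 0.92 and by 0.66, and Krt15, a basal keratin, fell by 0.70 and by 0.81. Flg, the barrier protein filaggrin, fell by 1.16 after BAC. Of 12 tested skeletal muscle markers, 7 were higher after DNFB, with 10 at an unadjusted p under 0.05, whereas 0 passed after BAC, with 4 at an unadjusted p under 0.05 by limma. The medians were 0.52 and 0.32, and no background share was taken for the counts at an unadjusted p. Atp2a1, Tnnt3 and Tnni2, a calcium pump and troponin subunits of fast fibres, rose by 0.79, 0.63 and 0.58 after DNFB, and Acta1, skeletal actin, had the smallest p after BAC with a change of 0.35 that did not pass. The difference between DNFB and BAC passed for 0 muscle markers, with 0 at an unadjusted p under 0.05 by limma. No value here says how the amount of muscle or epidermis in a sample bears on the members, and that was not tested.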
